A study of Mus musculus with 6 samples.

Results

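Mouse chromosome 11 carries 44 of the well-known growth and housekeeping genes examined here, among 1735 gene symbols of that chromosome and 23420 symbols in all. They encode kinase adaptors, transcription factors, replication and mitosis proteins, RNA-binding proteins, chaperones and metabolic enzymes. The genes were chosen by name, with the lower level of chromosome 11 in the knockout already known, so their difference between genotypes was part of the choice. It is described below and supports nothing by itself. RNA was sequenced from 3 WT and 3 *Patz1* knockout (KO) libraries of E14 mouse embryonic stem cells (ESCs), an established pluripotent line cultured in LIF plus MEK and GSK3 inhibitors. Both genotypes shared the line, the medium and the depletion of ribosomal RNA before sequencing. The KO was made with Cas9 and a guide RNA, and knockout cells were grown from single clones, while the labels do not say whether the 3 KO libraries came from more than a single clone. The study describes its RNA-seq replicates as biological, without saying in the labels how they were separated, so p-values measure the spread between these libraries.

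Genes of this kind are used by nearly every dividing cell. The proteins of a complex or pathway are often encoded on different chromosomes, so a level shared by all genes of a chromosome can be compared with that of partner genes elsewhere. PATZ1, the factor removed, is a zinc finger protein that binds G-rich DNA. Its gene lies on chromosome 11 as well, near the start of the sequence and within 1.48 to 118 Mb of the members. In bulk RNA, fewer cells expressing a gene and less RNA of it per cell cannot be told apart.

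The guide sequence is shown because it places the edit on the same chromosome as the members. It matches chr11:3290600-3290619 (plus strand, mm10) in exon 1 of *Patz1*, across the start codon, whose first base is 3290614. In the line below, the 20 guide bases are in lower case and the PAM that follows them in the genome is in capitals.
*Patz1* guide: aaggggcagcgaccatggagCGG
*Patz1* gave 1838, 1983 and 1843 normalised counts in the WT libraries, in replicate order, and 853, 862 and 862 in the KO libraries. All KO libraries were below all WT libraries, by -1.14 on the log2 scale (SE 0.10, DESeq2 adjusted p = 1.58e-26). Transcripts of the gene were thus still counted in KO, at 45.5% of the WT mean.

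Depth was 37573923 to 47721070 counts in replicates 1 and 2 and 11040756 and 11420268 in replicate 3 of WT and KO. Replicate 3 also held more ribosomal precursor RNA (*Rn45s*, 14.4% and 12.5% of counts against 1.79% to 3.03% elsewhere) and more counts on *Lars2* (5.31% and 4.56% against 0.0512% to 0.162%). Normalised counts are counts divided by the size factor of DESeq2, and 3 counts, taken as the floor, equal 1.69 to 8.21 of them depending on the library. The summed level of 7 ESC markers was 112372 to 118886 normalised counts in WT and 123092 to 128140 in KO. Of 5 fibroblast (feeder cell) markers, 3 were at or under the floor in all libraries, and the sum, mostly of *Thy1*, was 74.3 to 94.6 in WT and 121 to 166 in KO. Endoderm markers summed to 14.9 to 16.4 and 13.2 to 22, mesoderm markers to 172 to 293 and 158 to 236, and neural markers to 104 to 119 and 81.3 to 122. *Postn* and *Dcn* were at 0 in all KO libraries and *Foxa2* was at 0 in all WT libraries. The part of these shifts in the results was not tested.

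The description as well expressed held for most members. By mean normalised count, 38 of the 44 lay above the 75th percentile of genes with a count, and 38 had a mean of at least 1000. The exceptions with a mean under 250 were *Stat5a*, *Stat5b*, *Thra* and *Per1*. Per kilobase of exon, the highest WT levels were 22132 normalised counts for *Actg1* (cytoplasmic actin), 20835 for *Eif4a1* (the helicase of translation initiation) and 12771 for *Gnb2l1* (the ribosomal scaffold RACK1). On the same scale the lowest were 14.1 for *Stat5a*, 26.9 for *Thra*, 31.2 for *Stat5b* and 42.3 for *Per1*. By mean count the members lay between the 44.1 and the 99.9 percentile of genes with a count, from sparse transcription factor transcripts to abundant transcripts of translation and the cytoskeleton.

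The level shared by chromosome 11 differed between all 6 libraries and not only between genotypes. For each library, the median was taken, over 960 chromosome 11 genes with a mean of at least 50, of the log2 level in that library relative to the average of the same gene across the 6. It was 0.22, 0.11 and 0.06 in WT, in replicate order, and -0.12, -0.13 and -0.15 in KO. The median over the 44 members was 0.23, 0.08 and 0.02 in WT and -0.09, -0.12 and -0.15 in KO. The 3 WT libraries were thus above the 3 KO libraries in both sets, and WT replicate 1 stood highest. Members held 2.37%, 2.14% and 1.68% of all counts in WT and 1.84%, 1.78% and 1.51% in KO, so that WT replicate 3, with its larger ribosomal share, fell below 2 of the KO libraries on this unscaled measure.

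**Figure D1:**
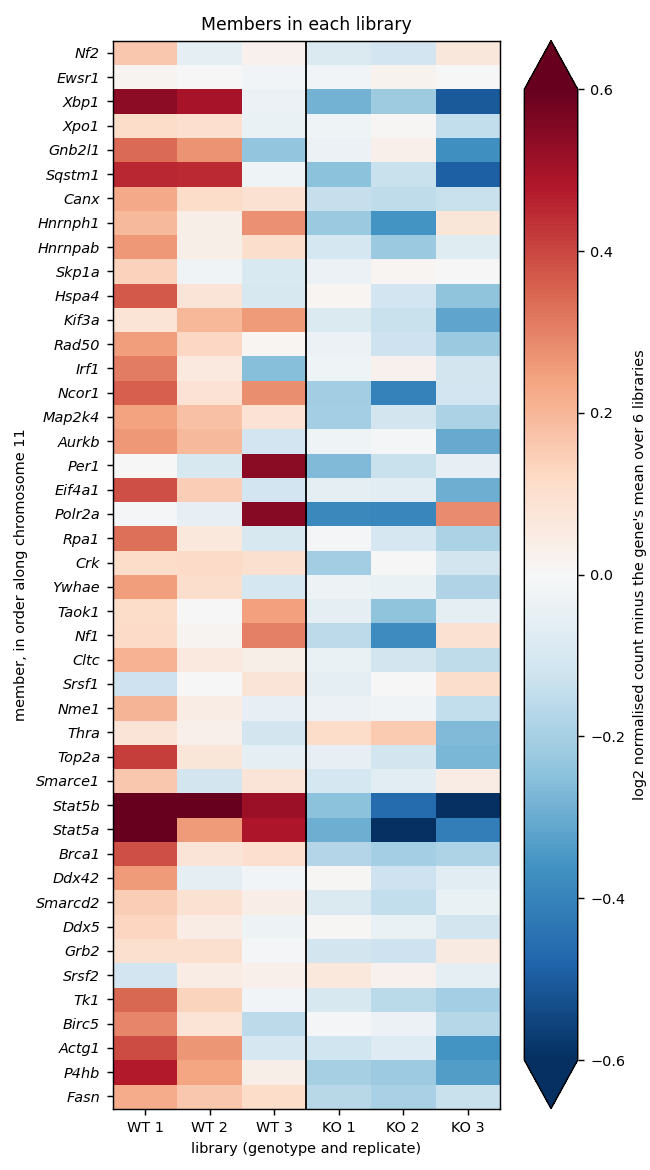
Heat map of the 44 members (rows, in order along chromosome 11) in the 6 libraries (columns). Color gives the log2 normalised count relative to the gene's average across the row, clipped at 0.6 in either direction. Most rows are above their mean in WT replicate 1 and below it in KO, *Ewsr1* is near its mean in each library, and *Polr2a* is high in replicate 3 of both genotypes.

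As a description of the genes chosen, the median log2 fold change (KO over WT) of the 44 members was -0.25, or 84.1% of the WT level, with quartiles at -0.33 and -0.13 and a range from -1.30 to 0.03. It was -0.26 (83.3% of WT) over the 960 chromosome 11 genes and 0.03 over 10072 genes of the other autosomes. Below 0 were 40 members (90.9%), beside 90.7% of the chromosome 11 genes and 42.4% of the other autosomal genes. Within replicate pairs 1 to 3, the members' median was -0.31, -0.22 and -0.19. WT replicate 1 was the highest WT library for 33 of the 44 members, and WT replicate 3 was the lowest for 29. Without WT replicate 1 the median of the members was -0.16.

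Which members passed the test in that contrast follows in part from the choice of genes, so the share over other genes is given beside the counts and nothing is read from it. DESeq2 called 10 of the 44 members lower in KO and 0 higher at an adjusted p under 0.05. With edgeR 9 were called lower, beside 13.3% of chromosome 11 genes, and 0 higher, beside 1.97% of all genes. At an unadjusted p under 0.05, 22 members were lower with DESeq2 and 23 with edgeR, and 0 were higher with either tool. With DESeq2 41.1% of chromosome 11 genes were lower at that level, and 7.12% of all genes were higher. Over all genes tested 4.78% were called lower and 2.70% higher, and over chromosome 11 genes 20.2% were called lower. With the replicate number as a block, DESeq2 called 28 members lower and 0 higher, against 7.95% of all genes lower, 6.68% higher and 39.0% of chromosome 11 genes lower. In 18 members all KO libraries were below all WT libraries, and in 0 members above. Lower without overlap were 13.8% of all genes tested and 44.4% of chromosome 11 genes tested. Of the 960 chromosome 11 genes with a mean of at least 50, DESeq2 called 12 higher, or 17 with the block. Higher without overlap were 18 of these 960 genes. The 10 called members were *Stat5b*, *Stat5a*, *Xbp1*, *Sqstm1*, *P4hb*, *Ncor1*, *Brca1*, *Map2k4*, *Fasn* and *Canx*. *Stat5b*, *Xbp1*, *Sqstm1*, *P4hb* and *Ncor1* passed under each alternative run. Leaving out WT replicate 1 gave 6 called members (7.98% of chromosome 11 genes called lower in the same fit), leaving out KO replicate 1 gave 6 (7.81%), leaving out KO replicate 2 gave 5 (8.35%) and leaving out WT replicate 3 gave 18 (27.8%).

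To ask which members depart from the shared level, the chromosome 11 median of each library was added, on the log2 scale, to the size factor of each chromosome 11 gene, and the same test was repeated. A departure of 0 then means that a gene differs between genotypes exactly as the chromosome 11 median does. Departures are on the log2 scale, KO over WT. DESeq2 called 1 member below the shared level, *Stat5b*, and 2 above it, *Ewsr1* and *Skp1a*. Over chromosome 11 genes 3.87% were called below and 2.12% above. With the replicate block, 5 members were called below (*Stat5b*, *Xbp1*, *Sqstm1*, *P4hb* and *Ncor1*) and 6 above (*Ewsr1*, *Skp1a*, *Xpo1*, *Ddx5*, *Srsf1* and *Srsf2*), against 6.20% and 5.08% of chromosome 11 genes. With edgeR only *Stat5b* was called, below, beside 3.41% of chromosome 11 genes. The 95% interval of the fold change sorted the members into 4 classes. It held the chromosome 11 median and not 0 for 16 members, beside 39.2% of the 960 chromosome 11 genes. It held 0 and not the median for 4 (*Ewsr1*, *Skp1a*, *Srsf1* and *Srsf2*), beside 4.48%, and both for 18, beside 44.9%. It held neither for 6 (*Stat5b*, *Stat5a*, *Xbp1*, *Sqstm1*, *P4hb* and *Ncor1*), beside 11.5%. In point estimate, 22 members lay within 0.1 of the median.

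**Figure D2:**
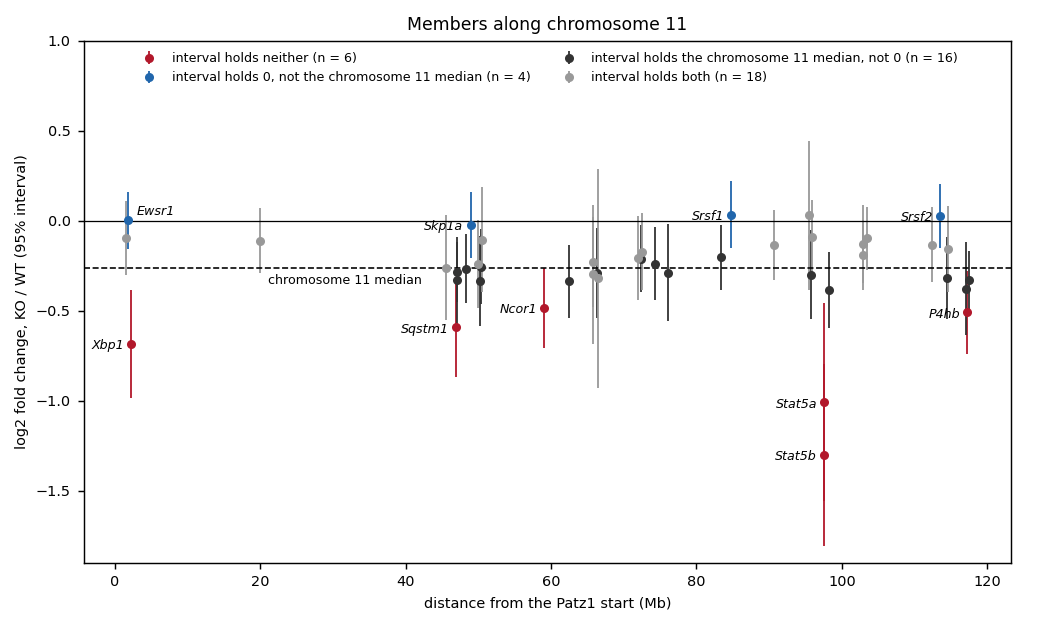
Log2 fold change (KO over WT) of each member with its 95% interval from DESeq2, against its distance in Mb from the start of *Patz1*. Points are colored by whether the interval holds 0, the chromosome 11 median (dashed line, -0.26), both or neither. *Stat5a* and *Stat5b* lie lowest, and members whose intervals miss the median occur from 1.78 to 117 Mb.

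Promoter windows, the 250 bases before a RefSeq start, were examined for the 3 members called away from the shared level and the 2 members nearest to it, by point estimate. The interval of *Gnb2l1*, which is among the latter, held 0 as well as the chromosome 11 median. The GENCODE genes of *Stat5b*, *Ewsr1* and *Gnb2l1* begin farther upstream than these RefSeq starts, so only the stretch of each window outside annotated exons is printed, and none for *Ewsr1*, whose window lies in exons throughout. *Stat5b* (chr11:100850725-100850831, minus strand) and *Skp1a* (chr11:52231745-52231994, plus, listed as *Skp1*) departed. *Hnrnpab* (chr11:51606882-51607131, minus) and *Gnb2l1* (chr11:48800110-48800331, plus, listed as *Rack1*) were the nearest. Sequences are from RefSeq on GRCm38.p6, the build of mm10, read 5′ to 3′ on the strand of the gene, and capitals would mark a match to GGGAGGG or GGGGNGGGG on either strand.
*Stat5b*: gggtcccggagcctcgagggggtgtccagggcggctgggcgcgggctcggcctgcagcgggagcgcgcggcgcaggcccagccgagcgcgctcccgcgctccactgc
*Skp1a*: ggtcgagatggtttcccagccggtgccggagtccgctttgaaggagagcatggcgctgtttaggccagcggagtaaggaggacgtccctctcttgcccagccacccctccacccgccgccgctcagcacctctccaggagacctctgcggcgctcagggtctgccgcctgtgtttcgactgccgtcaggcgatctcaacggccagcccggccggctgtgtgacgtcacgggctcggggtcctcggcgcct
*Hnrnpab*: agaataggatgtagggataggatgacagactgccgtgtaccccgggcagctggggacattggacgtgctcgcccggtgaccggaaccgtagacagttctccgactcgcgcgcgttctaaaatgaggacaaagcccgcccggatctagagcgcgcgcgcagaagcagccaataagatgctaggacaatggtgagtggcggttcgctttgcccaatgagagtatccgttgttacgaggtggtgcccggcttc
*Gnb2l1*: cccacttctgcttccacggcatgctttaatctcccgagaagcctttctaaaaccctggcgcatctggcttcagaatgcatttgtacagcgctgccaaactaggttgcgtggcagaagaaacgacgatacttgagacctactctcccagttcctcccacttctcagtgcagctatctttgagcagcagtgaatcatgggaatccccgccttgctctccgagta
None of the 5 windows of 250 bases held either G-rich motif, so none has capitals. Among windows of this length, GGGAGGG occurred in 19.7% of 32851 promoters, in 21.6% of the 2289 promoters of chromosome 11 and in 26.8% of the 56 windows of the 40 members that matched. GGGGNGGGG occurred in 20.6%, 23.1% and 25% of them. At least 1 window with the motif was found for 13 members in either case. The G and C content was 82.0% for *Stat5b*, 65.6% for *Ewsr1*, 68.0% for *Skp1a*, 58.4% for *Hnrnpab* and 53.2% for *Gnb2l1*, with a median of 61.2% over member windows, 54.8% over chromosome 11 promoters and 52.4% over all promoters.

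*Stat5b* and *Stat5a*, adjacent genes for transcription factors activated by cytokine receptors through JAK kinases, were the lowest members relative to WT. *Stat5b* (chr11:100780731-100850724, minus strand) gave 182, 189 and 148 normalised counts in WT and 87.5, 75.3 and 37.0 in KO. The groups did not overlap, and KO replicate 3 was the lowest library. The log2 fold change was -1.30 (SE 0.26, DESeq2 adjusted p = 2.92e-05) and the departure -1.03 (SE 0.26, 95% interval -1.53 to -0.53, adjusted p = 0.00218). Without WT replicate 2 the departure was -0.96 and missed the threshold (DESeq2 adjusted p = 0.0867), and it passed in the other 13 alternatives. *Stat5a* (chr11:100859351-100885169, plus strand) gave 118, 84.0 and 98.6 in WT and 57.6, 40.9 and 52.9 in KO, again without overlap. Its log2 fold change was -1.01 (SE 0.28, DESeq2 adjusted p = 0.00738), and the test was missed without WT replicate 1 (adjusted p = 0.204) and without KO replicate 2 (adjusted p = 0.173). Its departure of -0.73 missed the threshold (DESeq2 adjusted p = 0.106, with the block 0.0823). Of the neighbouring genes with a mean of at least 50, *Stat3*, a factor of the same family, had a log2 fold change of -0.06, and *Ptrf*, beyond it, had -0.56 (DESeq2 adjusted p = 8.42e-05). On the side of *Stat5b*, *Ghdc* had -0.21, *Rab5c* -0.11 and *Kat2a* -0.26. *Jak2*, the kinase upstream on chromosome 19, had -0.24 (DESeq2 adjusted p = 0.676).

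The other 4 members with intervals below the chromosome 11 median were called lower in KO, and their departure missed the threshold without the replicate block and passed it with the block. Without the block, the departures of *Xbp1*, *Sqstm1* and *P4hb* also passed when WT replicate 3, or replicate 3 of both genotypes, was left out, and that of *Xbp1* with the count filter and with the centre over genes with a mean of at least 200. *Xbp1*, a transcription factor of the unfolded protein response, gave 1520.1, 1476 and 1024 normalised counts in WT and 861, 904 and 739.9 in KO. All KO libraries were below all WT libraries, and replicate 3 was the lowest of each genotype. Its log2 fold change was -0.69 (SE 0.15) and its departure -0.41 (DESeq2 adjusted p = 0.0547, with the block 9.31e-05). *Sqstm1*, the selective autophagy receptor p62, gave 3770.5, 3757 and 2708 in WT and 2322, 2508 and 1961 in KO, with a departure of -0.32 (DESeq2 adjusted p = 0.152, with the block 1.93e-05). *P4hb*, a protein disulfide isomerase of the endoplasmic reticulum, gave 17888, 15159.5 and 13195 in WT and 11215, 11078 and 10209 in KO, with a departure of -0.24 (DESeq2 adjusted p = 0.172, with the block 0.000276). *Ncor1*, a nuclear receptor corepressor, gave 8460.02, 6998 and 8012 in WT and 5712, 4981 and 6089 in KO, with a departure of -0.22 (DESeq2 adjusted p = 0.331, with the block 0.000708). In each of the 4 the groups did not overlap.

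*Ewsr1* and *Skp1a* were the members called above the shared level, and their levels hardly differed between genotypes. *Ewsr1* (chr11:5069689-5099266, minus strand), an RNA-binding protein, gave 10834.5, 10708 and 10613 normalised counts in WT and 10609, 10874 and 10711 in KO. The ranges of the genotypes overlapped. The log2 fold change was 0.00 (SE 0.08, 95% interval -0.16 to 0.16) and the departure 0.27 (SE 0.08, 95% interval 0.10 to 0.43, DESeq2 adjusted p = 0.0299). The call was lost with edgeR (adjusted p = 0.108) and when WT replicate 1 (0.223), WT replicate 2 (0.173), KO replicate 1 (0.162), KO replicate 2 (0.231) or KO replicate 3 (0.0762) was left out. *Skp1a* (chr11:52231995-52246858, plus strand), a subunit of SCF ubiquitin ligases, gave 13149, 11773 and 11207 in WT and 11639.7, 12024 and 11924 in KO, inside the WT range. Its log2 fold change was -0.02 (SE 0.09) and its departure 0.25 (SE 0.08, 95% interval 0.09 to 0.41, DESeq2 adjusted p = 0.0439). That call was lost with edgeR (adjusted p = 0.133) and when any library was left out (0.0805 to 0.290). It was also lost without replicate 3 of both genotypes and with a local centre over 20 genes on each side (0.147). The 3 genes with a mean of at least 50 on each side of *Ewsr1* ranged from -0.55 for *Kremen1* to -0.26 for *Gas2l1*. The 3 genes with a mean of at least 50 on each side of *Skp1a* ranged from -0.35 for *9530068E07Rik* (DESeq2 adjusted p = 0.0317) to 0.12 for *Cdkl3*, with -0.07 for *Tcf7*, the next gene.

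*Srsf1* and *Srsf2*, which encode SR proteins of splicing, had log2 fold changes just above 0. *Srsf1* gave 20859.8, 22692 and 24019 normalised counts in WT and 21861, 22834 and 24495 in KO, and the groups overlapped. Its departure was 0.30 (SE 0.11, DESeq2 adjusted p = 0.101, with the block 3.15e-07). *Srsf2* gave 10935, 12219.8 and 12072 in WT and 12377, 12068 and 11411 in KO, also with overlap, and a departure of 0.29 (SE 0.10, DESeq2 adjusted p = 0.0793, with the block 0.000337). Their log2 fold changes were 0.03 each, but -0.02 each without WT replicate 1. *Srsf1* was also just below 0 without KO replicate 3, and *Srsf2* without KO replicate 1. *Thra*, a thyroid hormone receptor, had the same log2 fold change (0.03), but at 131, 126 and 115 normalised counts in WT and 134, 138 and 103 in KO its 95% interval, from -0.38 to 0.44, held the chromosome 11 median too.

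**Figure D3:**
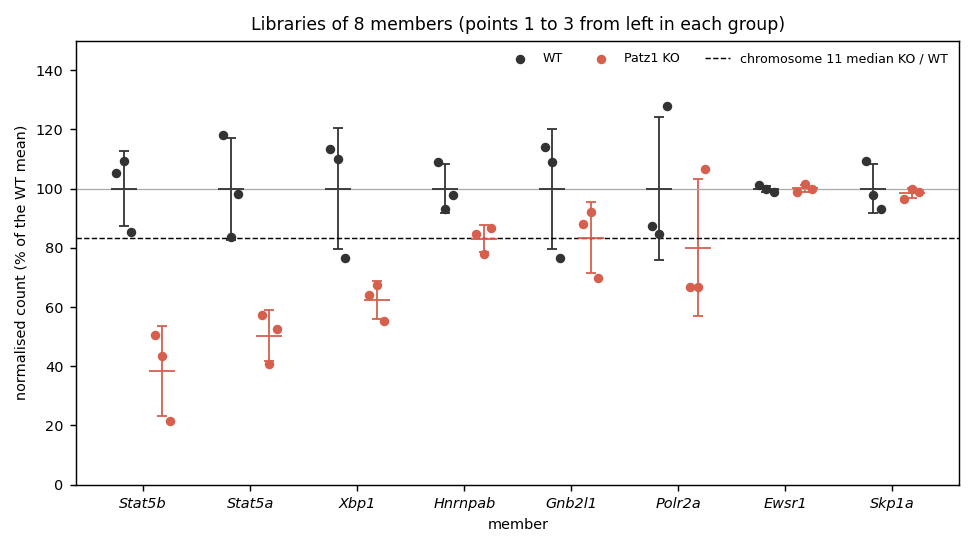
Normalised counts of 8 members in each library as a percentage of the WT mean of the gene. Points are libraries (replicates 1 to 3 from left), bars are mean ± SD over 3 libraries, and the dashed line is the chromosome 11 median of KO over WT (83.3%). *Stat5b* and *Stat5a* KO libraries lie well below the line, *Hnrnpab* KO libraries lie around it and *Ewsr1* KO libraries lie at the WT level.

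*Hnrnpab* had the smallest departure of the members, and the 5 members of highest mean count are described after it. *Hnrnpab*, a nuclear RNA-binding protein, gave 21021, 17945 and 18838 normalised counts in WT and 16312, 15018 and 16699 in KO, without overlap. Its departure was 0.00 (SE 0.09, 95% interval -0.17 to 0.18). *Gnb2l1* gave 74659, 71296 and 50162 in WT and 57661, 60298 and 45742 in KO, and replicate 3 was lowest in each genotype. Its log2 fold change of -0.26 (SE 0.15) missed the threshold (DESeq2 adjusted p = 0.383, with the block 0.000199), with a departure of 0.01. *Eif4a1* gave 106151, 89811 and 74939 in WT and 77873, 77439 and 66177 in KO, with a log2 fold change of -0.29 (SE 0.13, DESeq2 adjusted p = 0.180, with the block 6.49e-05). *Actg1* gave 67129, 61538 and 47810.1 in WT and 47210.1, 48599 and 40012 in KO, with a log2 fold change of -0.38 (SE 0.13, DESeq2 adjusted p = 0.0515, with the block 8.65e-09) and a departure of -0.11. In these 3 genes WT replicate 3 lay inside the KO range. *Hspa4*, an HSP110 family chaperone, gave 33776, 27667 and 24519.7 in WT and 26372, 24175 and 22145.5 in KO (log2 fold change -0.24, SE 0.13, DESeq2 adjusted p = 0.302, with the block 0.000583). *Ddx5*, an RNA helicase, gave 27119, 25605 and 24292.5 in WT and 24938, 24105 and 22951.5 in KO, with a smaller log2 fold change of -0.10 (SE 0.09, DESeq2 adjusted p = 0.691, with the block 0.199) and a departure of 0.17 (adjusted p = 0.264, with the block 0.00514).

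Besides *Stat5a*, *Stat5b* and *Thra*, the members of lowest mean count were *Per1* and *Kif3a*. *Per1*, a repressor of the circadian clock, gave 211, 197 and 307 normalised counts in WT and 175, 192 and 203 in KO. WT replicate 3 stood apart from the other libraries, and the log2 fold change of -0.30 had an interval from -0.68 to 0.09 (SE 0.20, DESeq2 adjusted p = 0.496). *Kif3a*, a kinesin motor subunit used in cilium assembly, gave 600.5, 649.7 and 676 in WT and 534, 517 and 455 in KO, without overlap. Its log2 fold change was -0.34 (SE 0.13, DESeq2 adjusted p = 0.0896, with the block 0.0342), and its departure was -0.07.

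Among the 14 signalling and transcription regulators, the median log2 fold change was -0.26, and 5 passed the test, each lower in KO, beside the 20.2% of chromosome 11 genes called lower. Besides the 4 described above, *Map2k4*, a kinase upstream of JNK, had a log2 fold change of -0.34 (SE 0.10, DESeq2 adjusted p = 0.0181). Its 3 WT libraries (1473 to 1641) lay above its 3 KO libraries (1206 to 1288). That call was lost when WT replicate 1, WT replicate 2 or any KO library was left out (highest adjusted p 0.197). *Nf1* and *Nf2*, tumour suppressors that restrain RAS and growth at cell contacts, had log2 fold changes of -0.29 and -0.10, neither under the threshold. *Grb2*, the adaptor that links receptors to RAS, had -0.13 and *Crk*, another adaptor, -0.21. *Taok1*, a kinase of stress pathways, had -0.24 and *Ywhae*, a 14-3-3 protein, had -0.17. *Irf1*, an interferon-responsive factor, had -0.11. With the replicate block (39.0% of chromosome 11 genes called lower) *Nf1*, *Crk*, *Taok1* and *Ywhae* passed as well, with DESeq2 adjusted p of 0.00651, 0.0136, 0.000837 and 0.0277.

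The 9 genes of DNA replication, repair, chromatin and mitosis had a median of -0.23, all 9 were below 0 (90.7% over chromosome 11) and 1 passed the test (20.2% over chromosome 11). *Brca1*, which acts in repair by homologous recombination, gave 5852, 4723 and 4789 normalised counts in WT and 3957, 3878 and 3935 in KO, with a log2 fold change of -0.39 (SE 0.11, DESeq2 adjusted p = 0.00805). The groups did not overlap, and the call was lost when WT replicate 1, KO replicate 1 or KO replicate 2 was left out (highest adjusted p 0.0947). *Top2a*, the topoisomerase of dividing cells, had -0.30 and *Tk1*, the S-phase thymidine kinase, -0.32. *Rad50*, of the MRN break-sensing complex, had -0.26 and *Rpa1*, which coats single-stranded DNA, -0.21. *Aurkb* and *Birc5*, subunits of the chromosomal passenger complex, had -0.23 and -0.16. *Smarcd2* and *Smarce1*, subunits of SWI/SNF chromatin remodelling complexes, had -0.19 and -0.09. None of these 8 passed the test, while with the block, in which 39.0% of chromosome 11 genes were called lower, *Top2a*, *Tk1*, *Rad50*, *Rpa1* and *Aurkb* did.

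The 11 genes of RNA synthesis, processing, export and translation had the smallest median of the 4 groups in size, -0.13 (91.5% of WT), and 8 were below 0. By DESeq2 0 passed the test (3 lower at an unadjusted p under 0.05, beside 41.1% of chromosome 11 genes, and 0 called with edgeR), while 5 passed with the block, beside 20.2% and 39.0% of chromosome 11 genes called lower in these fits. *Hnrnph1*, a splicing regulator, had -0.33 (SE 0.12, DESeq2 adjusted p = 0.0778, with the block 6.36e-07). *Polr2a*, the largest subunit of RNA polymerase II, gave 3344, 3247 and 4904 normalised counts in WT and 2564, 2555 and 4088 in KO, so that replicate 3 was the highest library in each genotype. Its log2 fold change was -0.32 with an SE of 0.31 (DESeq2 adjusted p = 0.721), and with the block it was -0.33 (adjusted p = 4.82e-06). Each KO library lay below the WT library of its number. *Xpo1*, the exporter of proteins and RNA from the nucleus, had -0.11 and *Ddx42*, an RNA helicase of splicing, -0.13. No test between groups of genes was made, and *Ewsr1*, *Srsf1* and *Srsf2* are the members of this group at or above 0.

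The 10 genes of folding, turnover, metabolism and cytoskeleton had a median of -0.31 (80.7% of WT), all 10 were below 0 and 4 passed the test, each lower in KO, while 8 passed with the block. Over chromosome 11, 90.7% of genes were below 0 and 20.2% were called lower, or 39.0% with the block. *Fasn*, the fatty acid synthase, gave 14762, 14145 and 13619 normalised counts in WT and 11264, 11037.5 and 11511 in KO, with a log2 fold change of -0.33 (SE 0.08, DESeq2 adjusted p = 0.00242). The call was lost without KO replicate 1 and without KO replicate 2 (highest adjusted p 0.0638). *Canx*, a chaperone of glycoproteins in the endoplasmic reticulum, gave 26914, 24840 and 24514 in WT and 20892, 20689 and 21012 in KO, with a log2 fold change of -0.29 (SE 0.08, DESeq2 adjusted p = 0.0143). That call was lost with edgeR and without WT replicate 1, WT replicate 2, KO replicate 1 or KO replicate 2 (highest adjusted p 0.142). In both genes the KO libraries lay together and below WT. *Cltc*, the clathrin heavy chain, had -0.20 and *Nme1*, a nucleoside diphosphate kinase, had -0.14.

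The fold changes of several members that missed the test moved with a single library. Leaving out WT replicate 1 moved 18 members by over 1.5 times, 15 of them toward 0. *Top2a* was then at -0.15, *Rpa1* at -0.08, *Birc5* at -0.04, *Smarce1* at -0.03, *Nf2* at -0.03 and *Ywhae* at -0.09. *Gnb2l1* and *Eif4a1* were at -0.16, *Hspa4* at -0.11, *Nme1* at -0.07, *Ddx5* at -0.06, *Ddx42* at -0.02 and *Irf1* at 0.04. Without WT replicate 3, *Polr2a* was at -0.11 and *Per1* at -0.12, while *Gnb2l1* was at -0.42, *Birc5* and *Ywhae* at -0.26 and *Irf1* at -0.22, farther from 0. Without WT replicate 2, *Smarce1* was at -0.17 and *Nf2* at -0.14, also farther from 0. Without KO replicate 3, *Polr2a* was at -0.57, *Aurkb* at -0.14, *Gnb2l1* at -0.15 and *Xpo1* at -0.06, and without KO replicate 2 *Nf1* was at -0.18.

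Partner genes off chromosome 11, whose products share a complex, family or step with a member, were set beside the members. *Irf2*, the partner of *Irf1*, was at or under the floor in each library and is given no fold. The other 48 partners had a median log2 fold change of 0.06, with 13 below 0 and 35 above. DESeq2 called 0 of the partners in either direction. With the replicate block it called 5 higher, *Top2b*, *Hnrnpd*, *Ddx17*, *Actb* and *Tbl1xr1*, beside 6.68% of all genes called higher in that fit, and edgeR without a block called 0. At an unadjusted p under 0.05, DESeq2 without the block gave 6 partners higher and 0 lower, beside 7.12% of all genes higher and 10.1% lower. In 50 of 51 pairs the member had the lower log2 fold change, with a median difference of -0.29, and the exception was *Thra* with *Thrb*, which had fewer than 10 normalised counts. The member to partner ratio was lower in all KO than in all WT libraries for 26 pairs and higher for 0, and it was lower in each replicate pair for 45. Of the 960 chromosome 11 genes, by their own level and without partners, 481 were lower without overlap and 18 higher. In each replicate pair 733 of these genes were lower. Since chromosome 11 was lower as a whole and the members were taken from it, the counts of pairs are a description with no test.

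Within complexes the subunits encoded on chromosome 11 and elsewhere could be set side by side. *Rad50* had a log2 fold change of -0.26, and its MRN partners *Mre11a* and *Nbn* had 0.07 and 0.02. The ratio of *Rad50* to each of them was lower in all KO than in all WT libraries. *Rpa1* had -0.21, with -0.03 for *Rpa2* and 0.08 for *Rpa3*, and *Kif3a* had -0.34, with 0.08 for *Kif3b* and 0.21 for *Kifap3*. In these 4 pairs too the ratio did not overlap between genotypes. *Aurkb* (-0.23) and *Birc5* (-0.16) differed from *Cdca8* (0.00) in this way, but their ratios to *Incenp* (0.06) overlapped. Ratios also overlapped for *Smarce1* with *Smarca4*, *Smarcb1* and *Smarcc1* (differences of -0.13, -0.18 and -0.12). The same held for *Eif4a1* with *Eif4g1* (-0.30) and *Eif4e* (-0.34), *Polr2a* with *Polr2b* (-0.40) and *Cltc* with *Clta* (-0.17). Between close relatives, *Top2a* had -0.30 beside 0.24 for *Top2b*, *Actg1* -0.38 beside 0.19 for *Actb*, and *Ncor1* -0.49 beside 0.19 for *Tbl1xr1*, a subunit of the same corepressor complex. Of the members called above the shared level with the block, *Skp1a* differed from *Cul1* by -0.08, *Srsf1* from *Srsf3* by -0.08 and *Srsf2* from *Srsf7* by -0.10, with overlapping ratios. *Xpo1* differed from *Ran* by -0.20 and *Ddx5* from *Ddx17* by -0.35, and these ratios were lower in all KO than in all WT libraries.

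**Figure D4:**
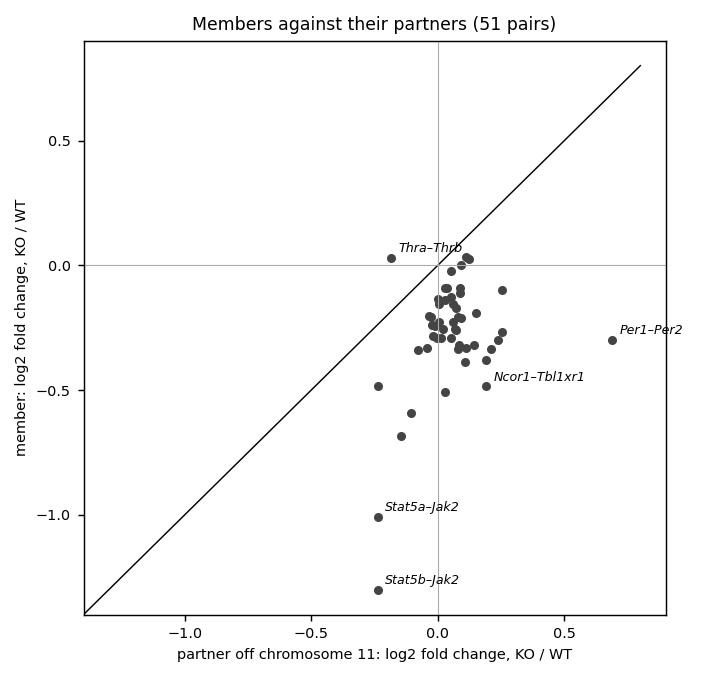
Log2 fold change (KO over WT) of each member, vertical axis, against that of its partner off chromosome 11, horizontal axis, for 51 pairs. The diagonal marks equal values. All pairs but *Thra* with *Thrb* lie below the diagonal, and most partners lie near 0.

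The local level along the chromosome, the median over 20 expressed genes on each side of a member, ranged from -0.34 at *Nf2* to -0.15 at *Polr2a*. Each of the 44 local values was below 0. With this local centre in place of the chromosome median, *Stat5b* had a departure of -1.07, *Ewsr1* of 0.32 and *Srsf1* of 0.34 (DESeq2 adjusted p = 0.0253), and *Skp1a* was no longer called. The 3 members closest to *Patz1* did not share a level, with log2 fold changes of -0.10 for *Nf2* at 1.48 Mb, 0.00 for *Ewsr1* at 1.78 Mb and -0.69 for *Xbp1* at 2.23 Mb. The 3 farthest, *Actg1*, *P4hb* and *Fasn* at 117 to 118 Mb, had -0.38, -0.51 and -0.33.

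Replicate 3 against replicates 1 and 2, with genotype in the model, is a contrast that the choice of members did not use. DESeq2 called 14 of the 44 members in it, 11 lower and 3 higher in replicate 3, beside 9.28% of all genes tested lower and 6.57% higher. The lower members were *Gnb2l1* (-0.45), *Xbp1* (-0.41), *Sqstm1* (-0.39), *Actg1* (-0.34), *Aurkb* (-0.32), *Eif4a1* (-0.31), *Hspa4* (-0.26), *Top2a* (-0.25), *Birc5* (-0.25), *P4hb* (-0.23) and *Ywhae* (-0.21), in log2 of replicate 3 over the others. The higher members were *Polr2a* at 0.62, *Nf1* at 0.29 and *Hnrnph1* at 0.26, with DESeq2 adjusted p of 1.13e-15, 0.0335 and 0.00933. The lower call with the smallest DESeq2 adjusted p was that of *Gnb2l1* (4.60e-10). Without WT replicate 3, 2 members were called, beside 3.12% of all genes in either direction in that fit. Without KO replicate 3, KO replicate 1 or KO replicate 2 the number was 6 (5.87%), 9 (13.2%) and 9 (10.5%). *Gnb2l1* and *Polr2a* were called in each alternative run that kept both libraries of replicate 3. The runs without WT or KO replicate 3 set 1 library against the others, so they do not measure the spread within replicate 3. Depth, the ribosomal share and the share of *Lars2* also differed between replicate 3 and the others, and their part in these differences was not tested.

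Counts of some members may hold reads of other genes. The library kit keeps strand, but whether the counting used it is not given in the sources used here. Exons of *Hnrnpab* are shared on the opposite strand with *Agxt2l2* over 29.1% of their length, those of *Sqstm1* with *3010026O09Rik* over 17.3%, those of *Srsf2* with *Mettl23* over 15.6% and *Mfsd11* over 9.74%, those of *Thra* with *Nr1d1* over 5.70% and those of *Ewsr1* with *Rhbdd3* over 4.37%. *Stat5a* shares 72 exon bases, 1.01% of its exons, with *Stat3* on the opposite strand, and the mean normalised count of *Stat3* was 3032 beside 75.4 for *Stat5a*. The remaining overlaps on the opposite strand were at most 1.60% of a member's exons. *Gnb2l1* and *Ddx5* host small RNAs in their transcripts. Values of *Actg1*, *Eif4a1*, *Gnb2l1*, *Nme1* and *Skp1a*, which have near-identical relatives or processed copies, are uncertain to the extent that reads could be assigned to either.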

How the data were processed

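The authors deposited 1 table of raw read counts per gene symbol for each of the 6 libraries, without normalization. Per the labels and the submitters' processing notes, these were stranded, rRNA-depleted libraries processed with TopHat2 2.1.1, Bowtie2 2.3.1.0 and featureCounts 1.6.2 on mm10. The annotation and the use of strand in counting are not given in the sources used here. Genotypes and replicate numbers came from the sample titles. The 44 members, their roles, the partner list and the tests were chosen with earlier results of these data known. A gene of the partner list entered the counts, and its own values are not reported here.

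All 23420 rows entered DESeq2 1.42.0 (R 4.3.3), with median-of-ratios size factors, a genotype term, a two-sided Wald test, Benjamini-Hochberg adjustment over all genes and a threshold of 0.05, as the study's methods use DESeq2 at this level. Independent filtering was left at its default of 0.1. For departures, the normalization factors of chromosome 11 genes were multiplied in each library by 2 to the power of the chromosome 11 median deviation (genes with a mean of at least 50, log2 with a pseudocount of 1). That median is estimated from the same libraries and enters the test as known, so the standard errors of departures do not include its error. Intervals are 95% Wald intervals. The replicate block adds terms to the model on the same 6 libraries, and the Wald test uses a normal reference. Very small p-values from that fit are therefore approximate, and the block was not run with edgeR. Floors cover counting error only. Positions came from GENCODE M21 (23055 symbols, 1278 through older symbols). Full values are given for members called away from the shared level and for the 5 with the highest and the 5 with the lowest mean normalized count. Promoters were taken for up to 3 departing members and the 2 with the smallest departure.

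Alternatives were TMM size factors, edgeR 4.0.16 quasi-likelihood tests, a filter of 10 counts in 3 libraries, the replicate block, each library left out, replicate 3 left out of both genotypes, and other centres for chromosome 11. Replicate numbers in the titles paired the samples. Over 11524 genes, each WT library's departure from the WT mean was correlated with that of the same-numbered KO library from the KO mean. The correlations were 0.469, 0.619 and 0.684 for pairs 1 to 3. Libraries of different numbers were not compared, and replicate 3 stood apart in both genotypes. The check therefore cannot tell whether replicates 1 and 2 pair by number, and the replicate block takes the pairing from the titles. In each of the 15 comparisons of 2 libraries, counts differed by more than sampling noise (lowest chi-square per df 9.50). The fits were checked on simulated data with known changes. The simulation held the same chromosome 11 shift in each KO library and no replicate effect. The replicate block was not run on it, so the check does not cover that fit.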

Additional observations from a re-analysis of the deposited data

How the results depend on the processing

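The count of members called lower in KO was 10. It was 28 with the replicate block, 18 without replicate 3 of both genotypes, and between 5 and 18 when a single library was left out. The count of called partner genes was 0. It was 5 with the replicate block, 2 without replicate 3 of both genotypes, and between 0 and 2 when a single library was left out. The median log2 fold change of the members was -0.25 and lay between -0.27 and -0.16 when a single library was left out, with -0.16 without WT replicate 1. Members called away from the shared chromosome 11 level numbered 3. There were 1 with edgeR, 11 with the replicate block, 7 without replicate 3 of both genotypes, 10 by the 95% interval of the uncentred fold change, and between 0 and 7 when a single library was left out. The 14 members called in replicate 3 became between 2 and 14 when a single library was left out, with 2 without WT replicate 3. TMM size factors and the count filter left each of these counts within 1.5 times its value, as did the 3 other centres for the departures. No value changed direction while called. The causes of these changes were not tested. In replicate 3 a floor of 3 counts is 7.93 to 8.21 normalised counts, against 1.69 to 2.12 in the other libraries.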
